A study of Mus musculus with 12 samples.

Results

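Mcl1, Bcl2l1, Bcl2 and Bcl2l2 encode the survival proteins MCL1, BCL-XL, BCL2 and BCL-W of the BCL2 family. These 4 genes of the 27179 in the count table were found by the Entrez identifiers 17210, 12048, 12043 and 12050, and they were followed by level, rank and relative abundance across 12 RNA-seq libraries. The libraries came from the 2 layers of the mammary ducts and alveoli: luminal cells, which line the lumen and include the hormone-responsive and milk-secreting cells, and basal cells, which surround them and are largely contractile. All animals were untreated wild-type female FVB/N mice, an inbred strain, that were virgin, 18.5 days pregnant or 2 days into lactation. No age is given in the labels. Both cell types were obtained by flow sorting, with 2 mice per stage and 2 libraries for each of the 6 groups. The labels do not say which library came from which mouse, and p-values measure the spread between libraries.

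Proteins of this family decide whether the outer mitochondrial membrane is opened during apoptosis. The survival proteins bind and restrain the pore-forming effectors BAX and BAK, and BH3-only proteins such as BIM, PUMA, NOXA and BIK bind the survival proteins and free the effectors. MCL1 is a short-lived protein that depends on continuing synthesis, and BCL-XL, BCL2 and BCL-W are more stable. In the mammary gland, MCL1 is known to be required for the survival of milk-secreting cells in lactation and BCL-XL is known to delay their death when suckling ends. Counts of RNA do not measure the proteins.

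The sequences before the transcription start sites of 3 members are shown because their transcripts took 3 different courses in luminal cells. Mcl1 kept the highest level per length of the 4 in every library, Bcl2 was lower in pregnancy and lower again in lactation, and Bcl2l2 was higher in lactation. The windows are from RefSeq (GRCm38.p6), read 5′ to 3′ on the gene's strand, with CpG dinucleotides in capitals. The Mcl1 window is chr3:95658471-95658720 (plus strand), the Bcl2 window is chr1:106714291-106714540 (minus strand) and the Bcl2l2 window is chr14:54883175-54883365 (plus strand), which ends before the first annotated base of the gene.
Mcl1: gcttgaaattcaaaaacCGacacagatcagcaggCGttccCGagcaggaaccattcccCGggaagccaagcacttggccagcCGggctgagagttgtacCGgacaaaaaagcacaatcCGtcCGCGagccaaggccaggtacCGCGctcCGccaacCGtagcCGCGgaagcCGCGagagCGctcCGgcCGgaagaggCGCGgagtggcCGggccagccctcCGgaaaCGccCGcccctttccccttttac
Bcl2: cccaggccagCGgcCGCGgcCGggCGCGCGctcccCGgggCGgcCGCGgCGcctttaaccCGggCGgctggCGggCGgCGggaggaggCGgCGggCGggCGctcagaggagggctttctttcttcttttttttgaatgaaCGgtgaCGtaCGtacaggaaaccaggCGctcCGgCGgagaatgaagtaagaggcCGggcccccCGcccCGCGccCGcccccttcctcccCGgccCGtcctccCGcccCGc
Bcl2l2: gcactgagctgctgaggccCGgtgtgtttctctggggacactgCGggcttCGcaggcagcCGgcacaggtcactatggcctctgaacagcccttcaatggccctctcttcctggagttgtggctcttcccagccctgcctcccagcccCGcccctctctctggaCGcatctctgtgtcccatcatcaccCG

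The 250 bases before the Mcl1 start held 26 CpG dinucleotides at 64.4% G and C, and the Bcl2 window held 36 at 74.8%. The printed Bcl2l2 window of 191 bases held 7 at 63.9%. The 3 windows listed for Bcl2l1 held 0, 11 and 12 CpG dinucleotides in 250 bases at 48.4%, 53.2% and 47.6% G and C. Over all 32851 windows of the table, the median was 6 CpG dinucleotides and 52.4% G and C. The motif TTCNNNGAA, to which STAT factors bind and which reads the same on both strands, was searched because STAT5 carries the prolactin signal in this tissue. It was in 0 of the 6 windows of the 4 genes and in 7.02% of all windows (2306 of 32851), which says only that these letters are not in these 250-base windows.

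In RefSeq GRCm38.p6, Mcl1 spans 95656944 to 95663179 of chromosome 3, Bcl2l1 spans 152758732 to 152833803 of chromosome 2, Bcl2 spans 106538176 to 106714290 of chromosome 1 and Bcl2l2 spans 54883366 to 54890858 of chromosome 14. The Mcl1 span begins upstream of the printed window. All windows listed for Bcl2l1 likewise lie within its span, downstream of its first annotated base. In the GENCODE vM21 models, the exons of Mcl1 and Bcl2l1 shared 0.0% of their length with another gene. For Bcl2 the share was 6.1%, with an antisense gene (D630008O14Rik), and for Bcl2l2 it was 13.3%, with the read-through gene Gm20521. Since the strand setting of the counting is not given in the sources used here, reads of these stretches cannot be assigned with certainty.

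Depth was 20.02 M to 24.72 M counts per library, of which 7756 to 26047 fell on Mcl1, 540 to 5594 on Bcl2l1, 17 to 1065 on Bcl2 and 975 to 2300 on Bcl2l2. The summed level of 10 luminal markers (CPM, counts scaled by TMM to a common library size) was 9320 to 19300 in luminal and 1490 to 2280 in basal libraries. For 10 basal markers it was 96.0 to 444 in luminal and 19300 to 58900 in basal libraries. In lactating mice 8 of the 10 luminal markers were called higher in luminal than in basal cells (35.4% of all genes), and the rest were not called. Krt8, among those 10, overlapped there, at 702 to 1030 CPM in luminal and 720 to 921 in basal libraries. The sum of 10 leukocyte markers was 1.70 to 12.4 in all libraries, with Itgam at 0 counts in basal lactating ones. The sum of 8 endothelial markers was 18.2 to 74.1 in luminal and 97.9 to 345 in basal libraries, and of 7 fibroblast markers 52.6 to 385 and 193 to 853. The run names put all luminal libraries in lane 1 and all basal libraries in lane 2, so cell type and lane cannot be told apart.

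The genes of 13 milk proteins held 1.85% to 1.86% of the counts in luminal virgin, 19.2% to 22.0% in luminal pregnant and 50.6% to 51.9% in luminal lactating libraries. The choice of scaling therefore bears on every luminal level. TMM (trimmed mean of M-values), used here, sets the bulk of genes level between libraries, and changes are relative to it. With library size as the only scaling, the median gene shifted by -0.50 (log2) for luminal pregnant minus virgin, by -0.85 for luminal lactating minus pregnant and by -1.36 for luminal lactating minus virgin. In basal cells the moves were -0.16, -0.04 and -0.20, and for luminal minus basal cells they were 0.16, -0.19 and -0.99 at the virgin, pregnant and lactating stage. For the luminal minus basal difference of the pregnancy change the median moved by -0.34, and for that of the lactation change by -0.79. Among called genes, the percentage that was higher went from 47.6% to 12.6%, from 49.0% to 9.6% and from 44.4% to 6.9% in the 3 luminal comparisons. It went from 52.0% to 32.1% in basal pregnant minus virgin and from 47.5% to 19.9% in luminal minus basal lactating cells. In basal lactating minus virgin cells 3791 calls were higher and 3788 lower, and 31.9% were higher by library size. For the 2 differences of changes the percentage went from 45.7% to 17.9% and from 50.4% to 11.3%. With the milk protein genes left out of the library size, it was 30.2%, 37.7% and 27.6% in the luminal comparisons and 32.9% and 32.6% in the same basal ones.

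Mcl1 was high in every library. Its TMM-scaled level was highest in luminal cells of pregnant mice, but the difference from virgin luminal cells was not called (log2 0.26) and was -0.25 by library size alone, also not called. Its level was 934 and 867 CPM in luminal virgin, 994 and 1160 in luminal pregnant and 703 and 588 in luminal lactating libraries. At the same stages it was 648 and 623, then 587 and 546, then 564 and 571 in basal cells. All luminal virgin and pregnant libraries lay above all basal ones, and the luminal lactating libraries overlapped the basal virgin ones. In order of the TMM-scaled mean, luminal pregnant and luminal virgin cells stood apart, luminal lactating overlapped basal virgin cells, and basal lactating overlapped basal pregnant cells.

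From pregnancy to lactation, Mcl1 fell 1.67-fold in luminal cells (log2 change -0.74, SE 0.13, edgeR quasi-likelihood adjusted p = 0.000398), and the 2 groups did not overlap. In basal cells over the same step the log2 change was 0.00 (SE 0.13, edgeR adjusted p = 0.99). The difference between these changes, luminal minus basal, was itself called at -0.74 (SE 0.18, edgeR adjusted p = 0.00593). In bulk RNA, fewer cells of a type and less RNA per cell cannot be told apart. The luminal lactating level was also below the virgin one (log2 change -0.48, SE 0.13, edgeR adjusted p = 0.00515), and without luminal lactating replicate 2 this call was lost (-0.33, adjusted p = 0.095). From the virgin state to pregnancy the luminal value of 0.26 (SE 0.13, edgeR adjusted p = 0.115) did not pass the test. The 3 basal stage comparisons of Mcl1 lay between -0.17 and 0.00 and none was called with TMM scaling. Basal lactating minus virgin cells were called lower by library size alone (-0.37, edgeR adjusted p = 0.0236). The same held with milk genes out of the library size (-0.36, edgeR adjusted p = 0.0305).

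Scaled by library size alone, the luminal change of Mcl1 from pregnancy to lactation was -1.59, with the same call. Between cell types, Mcl1 was 1.42-fold higher in luminal cells of virgin mice (log2 0.50, edgeR adjusted p = 0.00379) and 1.90-fold higher in those of pregnant mice (0.92, adjusted p = 2.66e-05). In lactating mice the difference was 0.18 (SE 0.13, edgeR adjusted p = 0.2), and by library size alone it was -0.81 and called, with basal cells higher. The immediate early genes of the cell dissociation response, a list of 16 added after the data were seen, summed to 18600 to 19500 CPM in luminal virgin, 8390 to 10600 in luminal pregnant and 13500 to 16600 in luminal lactating libraries. The basal sums were 21600 to 30800, 14100 to 15300 and 21800 to 32200. The luminal sum was lowest in pregnancy, and its part in the level of Mcl1 was not tested.

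**Figure D1:**
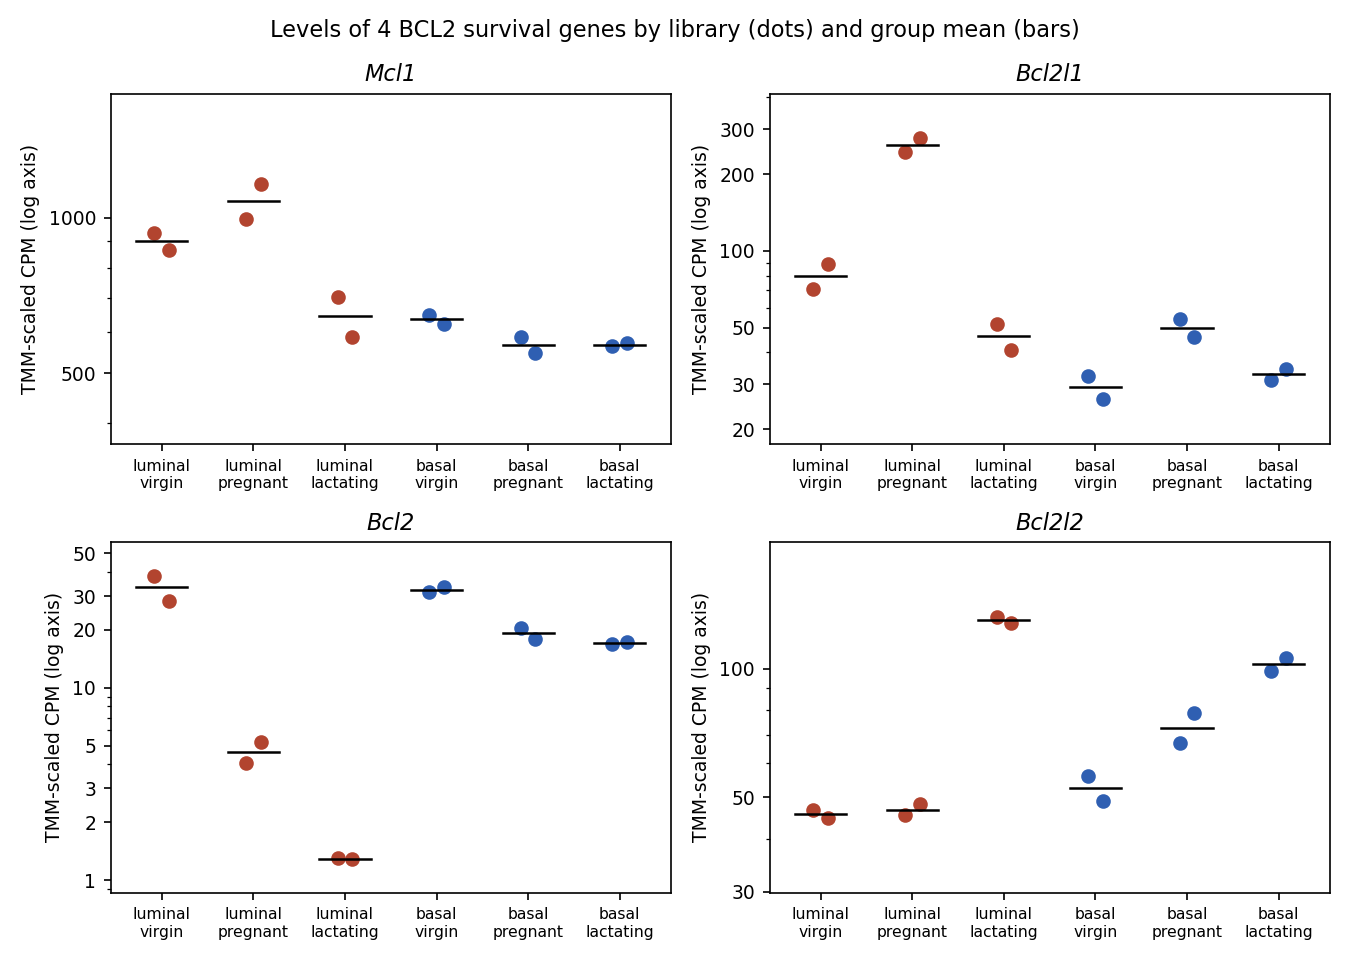
Level of each survival gene in TMM-scaled CPM on a log axis, with 1 dot per library (luminal red, basal blue) and a bar at the mean of the 2 libraries of a group. Bcl2l1 is highest in luminal pregnant cells (244 and 276 CPM), Bcl2 is lowest in luminal lactating cells (1.30 and 1.29) and Bcl2l2 is highest there (132 and 128, the order against basal lactating cells turning with library size scaling).

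Bcl2l1, the gene of BCL-XL, had the sharpest peak in pregnancy of the 4 genes. It was at 70.6 and 89.1 CPM in luminal virgin, at 244 and 276 in luminal pregnant and at 51.7 and 40.9 in luminal lactating libraries. The basal libraries held 32.2 and 26.2, then 54.2 and 46.0, then 31.3 and 34.5 CPM. Both cell types were thus highest in pregnancy, and the 3 luminal groups did not overlap. By mean, basal pregnant and luminal lactating cells overlapped, as did basal lactating and basal virgin cells.

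The rise of Bcl2l1 from virgin to pregnant luminal cells was 3.25-fold (log2 change 1.70, SE 0.15, edgeR adjusted p = 2.31e-06). The fall into lactation was 5.61-fold (log2 change -2.49, SE 0.16, edgeR adjusted p = 1.99e-07) and ended below the virgin level (-0.79, SE 0.16, adjusted p = 0.000792). In basal cells the rise was 1.72-fold (0.78, SE 0.16, edgeR adjusted p = 0.00266) and the fall 1.52-fold (-0.61, SE 0.16, adjusted p = 0.0107). The basal fall was lost without basal pregnant replicate 1 (-0.49) and without basal lactating replicate 1 (-0.54). Lactating and virgin basal cells differed by 0.17 (SE 0.16, edgeR adjusted p = 0.397).

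Both steps were larger in luminal than in basal cells. The difference of the changes was 0.92 (SE 0.22, edgeR adjusted p = 0.00635) for the rise, which was 0.57 and not called by library size alone (adjusted p = 0.0614). For the fall it was -1.88 (SE 0.22, edgeR adjusted p = 4.6e-05). Bcl2l1 was 2.73-fold higher in luminal than in basal cells of virgin mice (log2 1.45), 5.18-fold higher in pregnant mice (2.37) and 1.41-fold higher in lactating mice (0.49, SE 0.16, edgeR adjusted p = 0.0133). The difference in lactating mice was lost without luminal lactating replicate 1 (0.35) or basal lactating replicate 1 (0.43). By library size alone it was -0.50 and called in the opposite direction, with basal cells higher.

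Bcl2, the founding gene of the family, was at similar levels in both cell types of virgin mice and low in luminal cells of the later stages. Virgin luminal libraries held 38.2 and 28.4 CPM, pregnant ones 4.08 and 5.23, and lactating ones 1.30 and 1.29, the last from 17 counts each. Basal libraries held 31.4 and 33.4, 20.4 and 18.0, and 16.9 and 17.4 CPM at these stages. Luminal and basal virgin cells overlapped, and every other neighbouring pair in the order basal virgin, basal pregnant, basal lactating, luminal pregnant and luminal lactating was apart.

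Bcl2 was 7.17-fold lower in pregnant than in virgin luminal cells (log2 change -2.84, SE 0.17, edgeR adjusted p = 8.79e-08). It was 3.58-fold lower again in lactation (-1.84, SE 0.26, edgeR adjusted p = 8.38e-05), which made lactating cells 25.6-fold lower than virgin ones (-4.68, SE 0.22, adjusted p = 4.38e-09). In basal cells it fell 1.69-fold in pregnancy (-0.75, SE 0.15, edgeR adjusted p = 0.00264), and the further step of -0.16 (SE 0.15, adjusted p = 0.451) was not called. Over both steps it fell 1.89-fold in basal cells (-0.92, SE 0.15, edgeR adjusted p = 0.000393).

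The luminal minus basal difference was -2.09 (SE 0.23, edgeR adjusted p = 2.86e-05) for the pregnancy change of Bcl2 and -1.68 (SE 0.30, edgeR adjusted p = 0.001) for the lactation change. Between cell types it was 0.04 in virgin mice (SE 0.15, edgeR adjusted p = 0.833), and luminal cells were 4.13-fold lower in pregnant mice (-2.05) and 13.2-fold lower in lactating mice (-3.72, SE 0.23, adjusted p = 9.82e-09). Markers of hormone-sensing luminal cells, a list of 8 genes with Esr1, Pgr and Foxa1, summed to 2190 to 2260 CPM in luminal virgin, 168 to 181 in luminal pregnant and 538 to 554 in luminal lactating libraries. They summed to 33.3 to 72.9 in basal libraries, in which Bcl2 was at 16.9 to 33.4 CPM. From pregnancy to lactation the luminal marker sum was higher and Bcl2 lower. Of the 8 markers, 5 were called higher and 3 lower at this step (all genes 23.7% and 24.6%). Esr1 went from 8.28 to 8.73 CPM in pregnancy to 33.1 to 36.0 in lactation. Pgr went the way of Bcl2, from 6.11 to 6.81 CPM to 2.95 to 3.36. The part of hormone-sensing cells in the luminal values of Bcl2 was not tested.

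Bcl2l2, the gene of BCL-W, was the only member that was higher in lactating than in virgin cells of both layers by this scaling. Its luminal level was 46.6 and 44.8 CPM before pregnancy, 45.4 and 48.1 in pregnancy and 132 and 128 in lactation. Its basal level was 56.1 and 49.0, then 66.8 and 78.6, then 99.0 and 106 CPM. The luminal virgin and pregnant libraries overlapped and were the lowest, and all other neighbours in the order of means were apart.

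In luminal cells the change of Bcl2l2 was 0.03 in pregnancy (SE 0.11, edgeR adjusted p = 0.831) and 1.48 from pregnancy to lactation (SE 0.11, adjusted p = 5.46e-07), a 2.79-fold rise. By library size alone this rise was 0.62 and still called, the pregnancy change was -0.47 and called lower, and the lactating minus virgin change was 0.15 and not called, against 1.51 (SE 0.11, edgeR adjusted p = 1.35e-07). In basal cells it rose 1.38-fold in pregnancy (0.47, SE 0.11, edgeR adjusted p = 0.00583) and 1.41-fold in lactation (0.49, SE 0.11, adjusted p = 0.00401), which gave 1.95-fold over both steps (0.96, SE 0.11, adjusted p = 2.16e-05). The basal pregnancy call was lost without basal virgin replicate 2 (0.37), without basal pregnant replicate 2 (0.35) and by library size alone (0.31). The basal lactation call was lost without basal pregnant replicate 1 (0.38).

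For the lactation step of Bcl2l2 the luminal minus basal difference was 0.98 (SE 0.15, edgeR adjusted p = 0.000323), and 0.17 and not called by library size alone. For the pregnancy step it was -0.44 (SE 0.15, edgeR adjusted p = 0.0466), a call that was lost in 6 of 8 fits without 1 library. Luminal cells were lower than basal cells in pregnant mice (-0.64, edgeR adjusted p = 0.000171) and higher in lactating mice (0.35, SE 0.11, adjusted p = 0.0101). By library size alone the latter was -0.65 and called in the opposite direction, and without basal lactating replicate 1 it was 0.30 and not called. In virgin mice the difference was -0.20 (SE 0.11, edgeR adjusted p = 0.119).

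**Figure D2:**
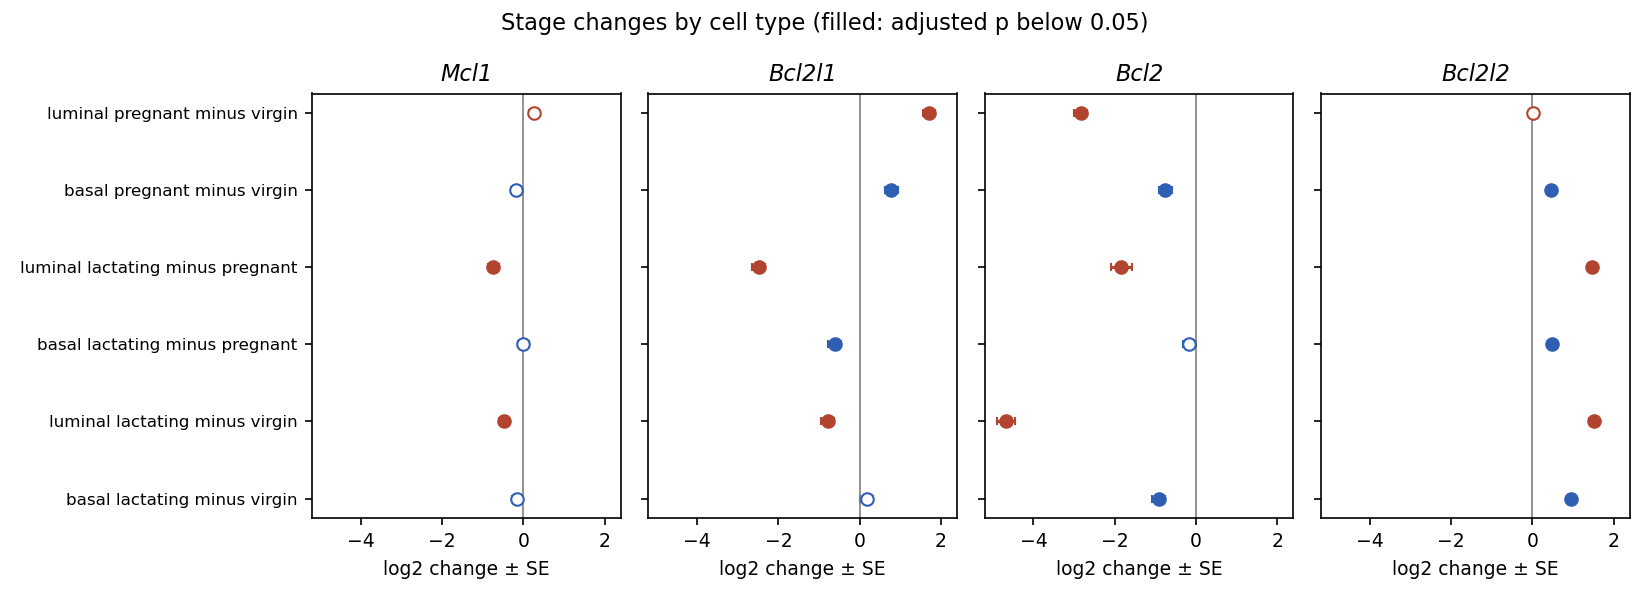
Log2 change ± SE of each survival gene for the 3 stage comparisons in luminal (red) and basal (blue) cells, from the edgeR fit with TMM scaling; filled points have an adjusted p below 0.05. From pregnancy to lactation the luminal points lie at -0.74 for Mcl1, -2.49 for Bcl2l1, -1.84 for Bcl2 and 1.48 for Bcl2l2, and the luminal pregnancy change of Bcl2l2 (0.03) turns to -0.47 with library size scaling.

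Counted over the 4 genes, luminal lactating minus pregnant cells had 1 higher and 3 lower, where 23.7% of all 15969 genes tested were called higher and 24.6% lower. The median log2 change of the 4 was -1.29 beside 0.00 over all genes. In luminal pregnant minus virgin cells 1 was higher and 1 lower (all genes 21.8% and 24.1%), with a median of 0.14 beside -0.04. For luminal lactating minus virgin cells 1 was higher and 3 were lower (26.7% and 33.5%), with a median of -0.63 beside -0.15. In basal cells, 2 were higher and 1 lower in pregnancy (15.6% and 14.4%), 1 and 1 at the lactation step (15.7% and 17.4%) and 1 and 1 over both (23.7% and 23.7%).

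Between luminal and basal cells, 2 of the 4 were higher and 0 lower in virgin mice (31.2% and 31.5% of all genes), 2 higher and 2 lower in pregnant mice (33.9% and 35.9%) and 2 higher and 1 lower in lactating mice (35.4% and 39.2%). The pregnancy change differed between the layers in 3 of the 4 genes, 1 higher in luminal cells and 2 lower (14.0% and 16.7%). The lactation change differed in all 4, 1 higher and 3 lower (18.3% and 18.0%). With calls this common among all genes, the counts over 4 members are a description only.

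Per unit of gene length, which allows levels of different genes to be set side by side, Mcl1 made up most of the survival transcripts in every group. Its share of the summed per-length level of the 4 genes was 83.4% ± 1.9 (SD, n = 2) in luminal virgin, 71.3% ± 0.48 in luminal pregnant and 76.3% ± 1.0 in luminal lactating cells. In basal cells it was 85.2% ± 0.87, 78.4% ± 0.76 and 78.1% ± 0.74. The lowest share was in luminal pregnant cells. Shares within a library do not depend on the scaling between libraries, and with 2 libraries against 2 an exact test cannot reach 0.05, so none was made between stages.

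Bcl2l1 was second to Mcl1 in luminal pregnant cells. Its share was 10.9% ± 2.1 (SD, n = 2) in luminal virgin, 25.4% ± 0.31 in luminal pregnant and 8.04% ± 0.43 in luminal lactating cells. In lactating luminal cells Bcl2l2 was second, at 15.6% ± 1.5 after 4.27% ± 0.007 and 3.14% ± 0.19 in virgin and pregnant cells. The basal shares were 5.74% ± 0.61, 10.2% ± 0.77 and 6.66% ± 0.33 for Bcl2l1, and 7.09% ± 0.41, 10.2% ± 1.6 and 14.2% ± 0.41 for Bcl2l2. Bcl2 held 1.39% ± 0.25 of the sum in luminal virgin, 0.138% ± 0.01 in luminal pregnant and 0.0693% ± 0.0074 in luminal lactating cells, and 1.06% to 1.96% in the means of the basal groups.

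The sum of the 4 genes was 309 ± 9.3 TMM-scaled RPKM (CPM per kilobase of gene length, SD, n = 2) in luminal virgin, 432 ± 43 in luminal pregnant and 242 ± 27 in luminal lactating cells. It was 214 ± 8.0, 207 ± 8.6 and 208 ± 3.6 in basal cells. The basal means differed by less than the SD of the virgin group, and the luminal means by more than the SD of any luminal group.

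**Figure D3:**
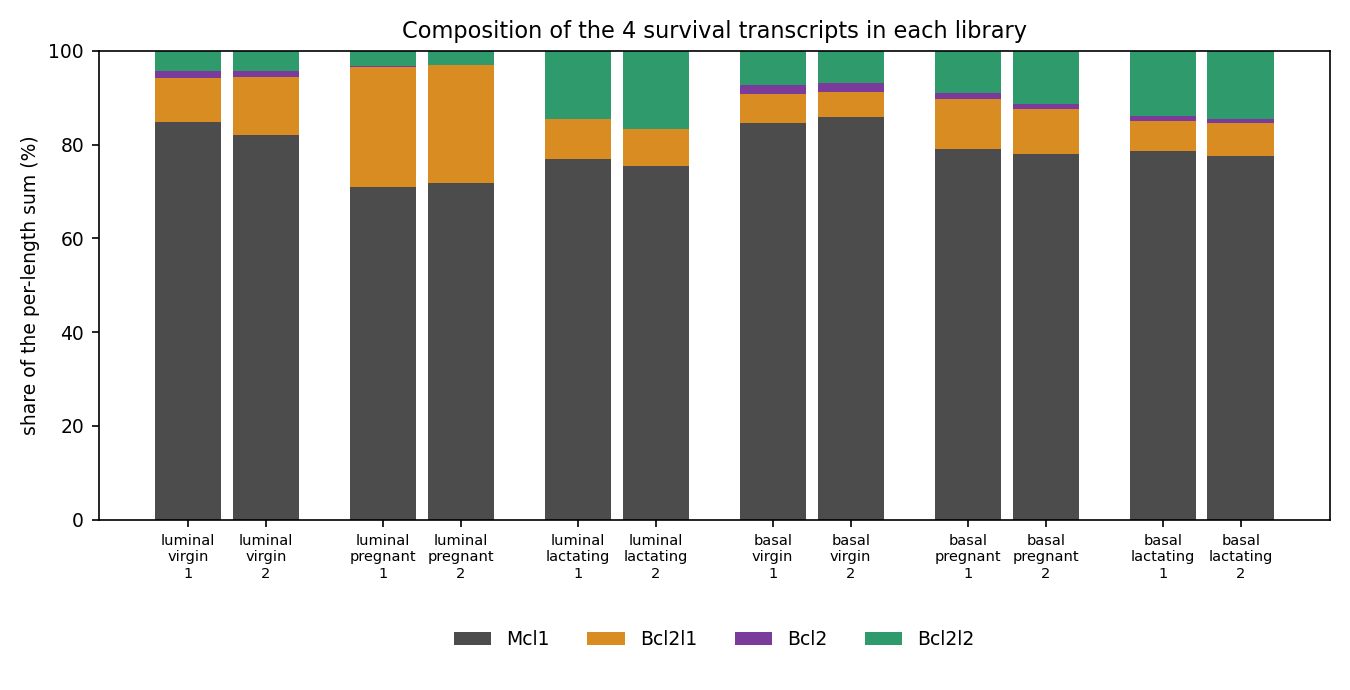
Share of Mcl1, Bcl2l1, Bcl2 and Bcl2l2 in the summed per-length level of the 4 genes, in percent, with 1 stacked bar per library. Mcl1 is the largest part of all 12 bars, Bcl2l1 reaches 25.4% in luminal pregnant cells and Bcl2l2 15.6% in luminal lactating cells (group means).

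Among all genes with a count in a library, ranked by counts per length, Mcl1 stood in the top 0.937% to 1.02% of luminal virgin and the top 0.926% to 1.01% of luminal pregnant libraries (ranks 160 to 187). It stood in ranks 290 and 351 in luminal lactating libraries and the top 1.38% to 2.11% in basal libraries. Bcl2l1 reached ranks 524 and 585 in luminal pregnant libraries (top 3.03% to 3.37%), after 1458 and 1902 in virgin and before 2930 and 3581 in lactating ones. Its basal ranks were 2736 to 4884.

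Bcl2l2 stood at ranks 4200 to 4551 in luminal virgin and pregnant libraries and at 1731 and 1749 (top 10.4%) in lactating ones. In basal libraries it was at 3586 to 4010, 2767 to 3182 and 1922 to 2147 at the 3 stages. Bcl2 was in the top 44.6% to 48.5% of luminal virgin, the top 68.7% to 70.4% of luminal pregnant and the top 84.0% to 84.1% of luminal lactating libraries, and in the top 46.1% to 57.2% of basal ones. Rank orders within libraries thus had the same order of luminal stages as the TMM-scaled levels of Bcl2l1, Bcl2 and lactating Bcl2l2. Ranks use no scaling between libraries, but like TMM they set a gene against the other genes. They therefore cannot decide between TMM and library size scaling. For Mcl1 the virgin and pregnant luminal ranks overlapped.

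**Figure D4:**
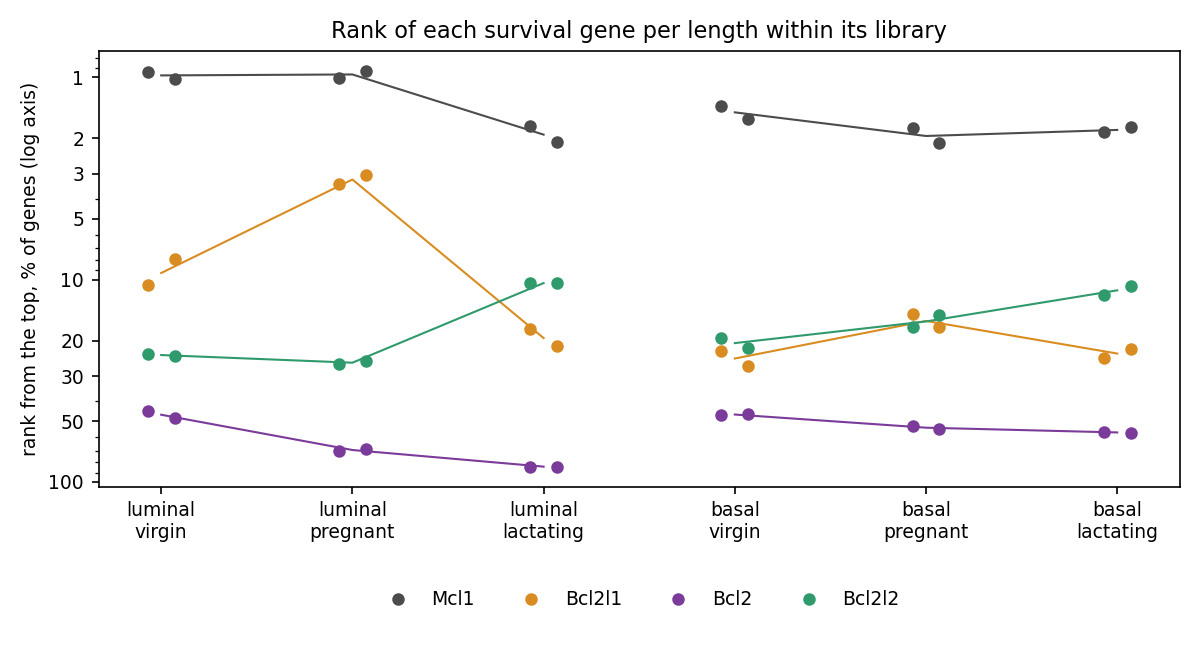
Rank of each survival gene among all genes with a count, per length, as percent from the top on a log axis (top of the axis is the highest level), with 1 dot per library and a line through the group means of each cell type. Bcl2l1 and Bcl2l2 change places between luminal pregnant and luminal lactating cells, and Bcl2 moves from the top 44.6% to 48.5% to the top 84.0% to 84.1%.

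The ratio of Mcl1 to Bcl2l1 per length was 8.99 and 6.62 in luminal virgin, 2.77 and 2.85 in luminal pregnant and 9.23 and 9.76 in luminal lactating libraries. In basal libraries it was 13.7 and 16.2, 7.35 and 8.07, and 12.2 and 11.3. Both layers were lowest in pregnancy, and at each stage both luminal libraries lay below both basal ones. The luminal ratio was lower by 0.90 on the log2 scale on average (luminal minus basal log2 -0.90; exact two-sided permutation within stages p = 0.00926, the smallest that 216 rearrangements can give, and 0.0185 after Benjamini-Hochberg adjustment over 6 ratios). Among the other 5 ratios of 2 members, those of Mcl1 and of Bcl2l1 to Bcl2 were higher in luminal cells by 2.45 and 3.36 (exact permutation adjusted p = 0.0185 each), and that of Bcl2l1 to Bcl2l2 by 1.60 (0.0278). These are averages over stages. Bcl2l1 to Bcl2l2 overlapped in lactation, at 0.573 and 0.465 in luminal and 0.462 and 0.476 in basal libraries. Mcl1 to Bcl2 was close in virgin mice, at 54.3 and 67.8 in luminal and 45.8 and 41.5 in basal libraries. Mcl1 to Bcl2l2 (0.70) and Bcl2 to Bcl2l2 (-1.76) did not pass (exact permutation adjusted p = 0.0556 each). With labels exchanged only within same-numbered libraries of a stage, a test added after the data were seen, the smallest p that an exact permutation over 64 rearrangements can give is 0.0312. All 6 ratios then missed the threshold, at exact permutation adjusted p = 0.0625 for Mcl1 to Bcl2l1, Mcl1 to Bcl2 and Bcl2l1 to Bcl2, and 0.0938 to 0.125 for the others.

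The other survival genes of the family were near the limit of detection. Bcl2a1a and Bcl2a1b, copies of a gene better known in leukocytes, were at 0.0378 to 2.29 CPM, and the sum of Bcl2a1a, Bcl2a1b, Bcl2a1d and Bcl2l10 did not exceed 3.80 CPM in a library. The Bcl2a1 copies are nearly identical, and 49.1% of the exon length of Bcl2a1b overlaps another gene, so their counts are uncertain. Bcl2a1d and Bcl2l10 were too low to be tested. Bcl2a1b was lower in basal lactating than pregnant cells (-2.18, SE 0.60, edgeR adjusted p = 0.015), a call that was lost without basal pregnant replicate 2 or basal lactating replicate 1.

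Of the BH3-only genes, which oppose the survival proteins, 7 of 8 were tested (Hrk was not). From pregnancy to lactation 0 rose and 4 fell in luminal cells, with a median of -0.70 beside 0.00 over all genes, of which 23.7% were called higher and 24.6% lower. Bik, whose product binds survival proteins at the endoplasmic reticulum, fell from 9.50 and 10.6 to 2.68 and 2.95 CPM (log2 change -1.83, SE 0.22, edgeR adjusted p = 2.31e-05). Bbc3, the gene of PUMA, fell from 21.5 and 20.1 to 7.64 and 6.21 CPM (-1.58, SE 0.22, edgeR adjusted p = 7.09e-05). Bcl2l11, the gene of BIM, which binds all 4 survival proteins, fell from 29.1 and 33.9 to 12.1 and 13.3 CPM (-1.31, SE 0.14, edgeR adjusted p = 8.7e-06). Pmaip1, the gene of NOXA, a partner of MCL1, was lower by -0.70 (SE 0.27, edgeR adjusted p = 0.044), a call that was lost with DESeq2, with RLE scaling and without any of 3 of the 4 libraries (-0.32 without luminal lactating replicate 1). Bid, Bad and Bmf were not called at 0.15, 0.22 and -0.11, and all 3 were called lower by library size alone (-0.70, -0.64 and -0.96).

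Basal cells did not share this pattern for Bcl2l11. It went from 98.8 and 92.5 to 169 and 158 CPM at the lactation step (log2 change 0.77, SE 0.12, edgeR adjusted p = 0.000563), and the luminal minus basal difference of the changes was -2.08 (SE 0.18, adjusted p = 6.73e-06). Bbc3 fell in basal cells too (-2.50, SE 0.20, edgeR adjusted p = 1.16e-05), and Bid was lower by -0.68 (SE 0.23, adjusted p = 0.0402), a call lost without basal pregnant replicate 1 (-0.38) or either basal lactating library. In all, 1 of 7 rose and 2 fell (all genes 15.7% and 17.4%), with a median of -0.34 beside 0.01.

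The effector Bax fell in luminal cells at lactation, from 38.1 and 36.7 to 26.4 and 21.2 CPM (log2 change -0.65, SE 0.13, edgeR adjusted p = 0.00108). Bak1 (-0.24, SE 0.11) and Bok (0.50, SE 0.35) were not called there, Bak1 being lower by library size alone (-1.09) and Bok turning to -0.35, and 0 of the 3 effectors were called in basal cells. In luminal pregnant minus virgin cells Bok was lower (-2.24, SE 0.25, edgeR adjusted p = 1.7e-05) and Bak1 higher (0.72, SE 0.11, adjusted p = 0.000154), the latter not by library size alone (0.22). In the same comparison, where 21.8% of all genes were called higher and 24.1% lower, 3 of 7 BH3-only genes were lower, Bik (-1.04), Bcl2l11 (-1.01) and Bid (-0.81), the call of Bid being lost without luminal pregnant replicate 1 (-0.63). Bad was called higher (0.41, SE 0.15, edgeR adjusted p = 0.0352), but it was -0.09 by library size alone and lost its call without any of 3 of the 4 libraries. Exons of Bak1 and Bad overlap other genes over 25.5% and 20.5% of their length.

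**Figure D5:**
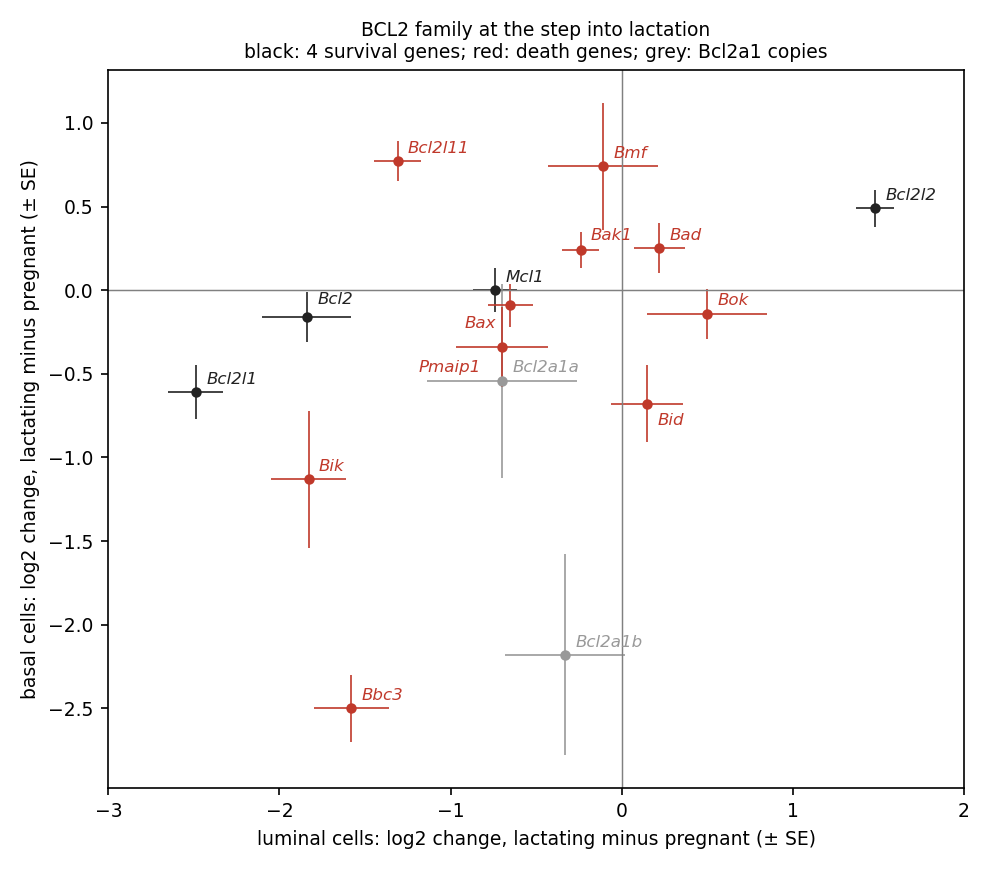
Log2 change from pregnancy to lactation in luminal cells (horizontal) against basal cells (vertical), ± SE, with TMM scaling, for the 4 survival genes (black), effectors and BH3-only genes (red) and Bcl2a1 copies (grey). Bcl2l11 lies at -1.31 and 0.77, Bbc3 at -1.58 and -2.50, and Bcl2l2 at 1.48 and 0.49; with library size scaling Bid, Bad and Bok turn to -0.70, -0.64 and -0.35 on the luminal axis.

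Within each library, the per-length sum of the 4 survival genes was 4.63 and 4.71 times that of the 8 BH3-only genes in luminal virgin, 8.22 and 9.15 times in luminal pregnant and 7.70 and 7.09 times in luminal lactating libraries. In basal libraries it was 3.42 and 3.53, 3.85 and 3.73, and 4.02 and 4.04 times. The luminal pregnant and lactating libraries lay above the luminal virgin ones, and all luminal libraries above all basal ones. Against the effectors Bax, Bak1 and Bok, the sum was 5.25 and 5.27, 6.0 and 7.11, and 5.17 and 5.10 times in the luminal groups. It was 3.82 and 4.49, 3.16 and 3.03, and 3.14 and 3.27 times in the basal groups. These are ratios of RNA, described without a test.

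Genes that act on the stability of MCL1 protein were counted next, since RNA and protein of this gene can part. Of 10 such genes 0 were higher and 3 lower in luminal lactating minus pregnant cells, with a median of -0.35 beside 0.00. The 3 of 10 lie near the 24.6% of all genes called lower there. They were Usp9x, a deubiquitinase that stabilises MCL1 (-0.85, SE 0.12), Tpt1, a binding partner that stabilises it (-0.72, SE 0.12), and Fbxw7, a ubiquitin ligase subunit that promotes its destruction (-0.69, SE 0.10). The 3 thus include genes of opposite roles. In basal cells 2 of the 10 were higher and 0 lower (all genes 15.7% and 17.4%), Gsk3b (0.56, SE 0.09) and Btrc (0.51, SE 0.13), named after their values were seen.

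Downstream of the mitochondria, 2 of 7 genes of cytochrome c release and caspase activation were higher and 0 lower in luminal lactating minus pregnant cells, near the 23.7% of all genes called higher, with a median of 0.23. Diablo, an antagonist of inhibitor of apoptosis proteins, was higher by 0.60 (SE 0.13), and the mitochondrial protease gene Htra2 by 0.46 (SE 0.12). By library size alone Diablo was at -0.26 and not called, and Htra2 at -0.40 and called lower. Htra2 was not called with milk genes out of the library size (0.31). Of 5 inhibitor of apoptosis genes 3 were higher and 1 lower (all genes 23.7% and 24.6%), with a median of 0.43. Birc2, the gene of cIAP1, was lower (-1.25, SE 0.15), and Birc5, the gene of survivin, which also acts in cell division, was higher (1.08, SE 0.20), as was Birc6 (0.43, SE 0.11). The third that was higher, Xiap (0.39, SE 0.11), was named after its values were seen. By library size alone Birc5 was at 0.21 and not called, Birc6 at -0.43 and called lower, and Xiap at -0.46.

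Over the 12 libraries, the log2 levels of Mcl1 and Bcl2l1 ran together (Pearson r = 0.89), and those of Bcl2l2 ran against Mcl1 (-0.65), Bcl2l1 (-0.50) and Bcl2 (-0.55). For Mcl1 with Bcl2 r was -0.12, and for Bcl2l1 with Bcl2 it was -0.30. The points share cell type, stage and lane, and these values describe the 6 groups more than 12 independent samples. The genes most like Mcl1 were Ppp1r14d, Phactr4 and Macc1 (0.967 each) and Prorp and N4bp1 (0.962 each). For Bcl2l1 they were Tollip (0.978), Jmjd4 (0.971), Tmc1 (0.968), Tbcc and Agfg1 (0.955 each). Ppp1r14d (group means 0.0185 to 0.995 CPM) and Tmc1 (0.0 to 1.5 CPM) were near the limit of detection, and their r values rest on few counts.

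Most like Bcl2 were Ephb3 (0.987), Papln (0.982), Stk10 (0.978), Plekhg1 (0.977) and Amd2 (0.975). Ephb3, an ephrin receptor gene, had mean levels of 90.7, 16.9 and 5.40 CPM in luminal virgin, pregnant and lactating cells, and 66.9 and 50.7 CPM in basal pregnant and lactating cells. The genes most like Bcl2l2 were Gstm7 (0.979), Fbxo9 (0.978), Lrrc20 (0.972), Man1a2 (0.966) and Cav2 (0.960). Gstm7, a glutathione S-transferase gene, went from 0.730 and 1.19 to 14.7 CPM in luminal cells and from 1.22 and 2.46 to 6.85 CPM in basal cells over the 3 stages.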

How the data were processed

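RNA-seq counts of sorted luminal and basal mammary cells were used. The deposited table holds the authors' read counts per Entrez gene, without normalization, and a gene length. The submitters' processing notes list GRCm38 and mm10 as builds and name featureCounts, Subread 1.4.4 and CASAVA 1.8.2, with no role for each. Strand, multimapping and annotation settings: not given in the sources used here. The 12 deposited files of single libraries differed from the table in 0 counts. RefSeq (GRCm38.p6) gave a symbol to 25275 identifiers. The other 1904, with 0.54% to 1.37% of each library's counts, were also tested.

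The 4 genes and all lists were chosen with earlier results of these data known. The lists held 123 entries, all matched, after 2 list genes that are not reported here were left out: the 4 members, other survival genes, effectors, BH3-only genes, MCL1 stability, caspase activation, inhibitors of apoptosis, milk proteins, luminal, basal, hormone-sensing, leukocyte, endothelial and fibroblast markers, and immediate early genes (added after the data were seen).

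Genes were kept by filterByExpr (minimum count 10, by group), which left 15969. Counts were scaled by TMM and compared by the quasi-likelihood F-test of edgeR 4.0.16 in R 4.3.3, on 1 fit of 6 group means over 12 libraries, so groups of 2 shared 1 estimate of the spread. P-values were adjusted by Benjamini-Hochberg over all genes tested, and a gene was called below 0.05. SEs were derived from the log2 change and its F value (size over root F). The procedure was tested on simulated counts with 200 changed genes. These were changed in luminal lactating libraries only, equally up and down, and all other means were the same in every group. The simulation therefore cannot check TMM scaling where milk protein genes hold a large part of the counts. Levels are TMM-scaled CPM. Levels of different genes were compared only per deposited length, as ranks, shares, ratios and TMM-scaled RPKM. Likeness is the Pearson correlation of log2 CPM (prior count 2). Named were all 4 members, the other BCL2 family genes, from the stability, caspase and inhibitor lists up to 3 called genes with the largest luminal change at lactation, and the 5 genes most like each member.

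The labels number the libraries 1 and 2 in each group. Deviations from the group mean were correlated over 9096 genes between luminal and basal libraries with the same stage and number. The values were 0.249 (virgin), 0.355 (pregnant) and 0.161 (lactating). Other pairs of groups gave -0.277 to 0.164, a range that holds the lactating value. Same-numbered libraries of a stage were treated as paired only in the replicate block between cell types and in the added permutation. The main fit and the permutation within stages used no pairing. The pairing comes from the data, and no label states it. Alternatives were other scalings (library size, library size without milk genes, RLE), DESeq2 1.42.0, no filter, only the groups compared, the replicate block, leaving out each library, the longest GENCODE vM21 transcript as length, and no length correction. A permutation of the ratios within paired libraries was added after the data were seen. Depth speaks to counting error only, because PCR copies without molecular identifiers cannot be told from separate molecules.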

Additional observations from a re-analysis of the deposited data

Results flagged for a closer look

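The change between stages differed between luminal and basal cells in 7 of 8 tests of the 4 survival genes, each by the interaction term of the edgeR fit (luminal minus basal, log2). At the step from pregnancy to lactation the difference was -0.74 for Mcl1, -1.88 for Bcl2l1 and -1.68 for Bcl2, which all fell in luminal cells, and of these Bcl2l1 was also called lower in basal cells. It was 0.98 for Bcl2l2, which rose further in luminal cells, but 0.17 and not called by library size alone. At the step from the virgin state to pregnancy it was 0.92 for Bcl2l1, which rose further in luminal cells (0.57 and not called by library size alone), and -2.09 for Bcl2, which fell further there. For Bcl2l2 it was -0.44 at that step, from a basal rise without a called luminal change, and this call was lost in 6 of 8 fits without 1 library. Over all genes the same tests called 18.3% higher and 18.0% lower at the lactation step, and 14.0% and 16.7% at the pregnancy step. All luminal libraries were in 1 lane and all basal libraries in the other, and cell type and lane cannot be told apart.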

How the results depend on the processing

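The 44 changes of the 4 genes kept direction and side of the threshold with DESeq2, with RLE scaling and with the replicate block. With the block, Mcl1 was -0.74 in luminal lactating minus pregnant cells and -0.74 for the luminal minus basal difference of the lactation changes. Library numbers were balanced over the groups, so the block could hardly move a log2 change. Directions kept with the block were thus set by the design, and only the spread and the adjusted p were open to change. In comparisons between cell types the block paired same-numbered libraries of a stage. For stage comparisons within a cell type it was an effect of library number shared by all 12 libraries. There it is no check of pairing. By library size alone 33 of the 44 changes kept both direction and side of the threshold. Mcl1 was then -0.25 in luminal pregnant minus virgin cells (not called), -0.37 in basal lactating minus virgin cells (called) and -0.81 in luminal minus basal lactating cells (called). Bcl2l1 was -0.50 in the latter (called), -0.04 in basal lactating minus virgin cells (not called) and 0.57 for the difference of the pregnancy changes (not called). Bcl2l2 was -0.47 in luminal pregnant minus virgin cells and -0.65 in luminal minus basal lactating cells, both called. It was 0.15 in luminal lactating minus virgin cells, 0.31 in basal pregnant minus virgin cells and 0.17 for the difference of the lactation changes, none called. That difference was called for 8933 genes, against 5787. Bax was -0.49, Bmf -0.47, Bbc3 -0.15 and Bad -0.09 in luminal pregnant minus virgin cells, of which only Bax was called. In luminal lactating minus pregnant cells Bid was -0.70, Bad -0.64, Htra2 -0.40 and Birc6 -0.43, all called lower, and Bok -0.35 and Diablo -0.26, not called. With milk genes out of the library size, Mcl1 was -0.36 (called) and Bcl2l1 -0.03 in basal lactating minus virgin cells, and Bcl2l2 was -0.17, Bax -0.19 and Bmf -0.17 in luminal pregnant minus virgin cells. The pregnancy difference of Bcl2l2 was -0.44 without a filter and -0.41 with only the groups compared, neither called. With the replicate block in the permutation, the ratio of Mcl1 to Bcl2l1 (luminal minus basal log2 -0.90) was no longer called (exact permutation adjusted p = 0.0625).

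When 1 library was left out, 190 of 208 values kept direction and call, 15 lost the call and 3 uncalled values turned sign. The ranges were -0.59 to -0.33 for Mcl1 in luminal lactating minus virgin cells, -0.72 to -0.49 for Bcl2l1 in basal lactating minus pregnant cells and 0.35 to 0.69 in luminal minus basal lactating cells. For Bcl2l2 they were 0.35 to 0.58 in basal pregnant minus virgin, 0.38 to 0.61 in basal lactating minus pregnant and 0.30 to 0.40 in luminal minus basal lactating cells, and -0.55 to -0.31 for the pregnancy difference. Values that were not called and turned sign ranged from -0.19 to 0.24 for Bcl2 in luminal minus basal virgin cells. In luminal pregnant minus virgin cells they ranged from -0.01 to 0.07 for Bcl2l2, -0.07 to 0.09 for Bax, -0.08 to 0.15 for Bmf and -0.30 to 0.17 for Bcl2a1a. In luminal lactating minus pregnant cells they ranged from -0.04 to 0.38 for Bid and -0.23 to 0.06 for Bmf, and in basal ones from -0.98 to 0.03 for Bcl2a1a. Genes called numbered 3009 to 3933 in basal pregnant minus virgin cells (3009 without basal pregnant replicate 2, 4794 with all) and 2735 to 4354 in basal lactating minus pregnant cells (2735 without basal pregnant replicate 1, 2806 without basal lactating replicate 2, 5287 with all). In every comparison the fits without 1 library called fewer genes than the full fit. Such a fit leaves 1 library in a group and fewer to estimate the spread. A lost call therefore need not mean that a result rests on the library left out. The part of each in these numbers was not tested. For other BCL2 family and pathway genes, 430 of 481 values kept direction and call, 19 lost the call, 10 gained one and 22 turned sign.

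The share of Mcl1 with the longest transcript as length was 73.4% in luminal pregnant, 78.2% in luminal lactating, 86.3% in basal virgin, 80.0% in basal pregnant and 79.8% in basal lactating cells. With no length correction it was 77.5% in luminal pregnant, 78.3% in luminal lactating and 79.9% in basal pregnant cells. By counts alone, Mcl1 stood in the top 0.421%, 0.447% and 0.979% of luminal virgin, pregnant and lactating libraries and the top 0.835%, 1.18% and 1.21% of basal ones. Among the genes tested it stood in the top 1.11% and 1.05% of luminal virgin and pregnant and the top 1.73%, 2.26% and 2.06% of basal virgin, pregnant and lactating libraries. Depth limits Bcl2 most, with 17 counts in each luminal lactating library.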
